A study of Rattus norvegicus with 10 samples.

Results

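The genes described here are 34 genes of fat cells and of fatty acid use, listed by name: hormones secreted by fat cells, lipid droplet proteins, fatty acid carriers, enzymes that build and break triglyceride, enzymes of mitochondrial fatty acid oxidation, and a few markers of fat tissue such as Car3. Of these, 33 were read by at least 1 probe set annotated to the gene alone, among 14217 genes read in this way, and each was followed by its brightest probe set. Retn, which encodes resistin, had no such probe set and is not reported. After the dimmest 40% of probe sets were left out (mean log2 signal under 5.15 over the 10 arrays), 25 of the 33 were tested, among 10793 genes.

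The study profiled mammary tumours that a single oral dose of 100 mg/kg DMBA (7,12-dimethylbenz(a)anthracene, a carcinogen) had produced in females of the outbred Sprague-Dawley strain of rat, with no treatment given afterwards in either group. The 5 total tumours were collected at sacrifice at 19 weeks of age. The 5 biopsies were needle samples (0.7 cm by 2.5 mm) of the same tumours, taken at 12 weeks of age when the volume was 2 cm3. The 5 tumours carry the names 31D3, 32D1, 37I1, 50I1 and, last, 52I4. All had been chosen for grade II histology, and the labels do not say whether they grew in different rats. The series text describes the late sample as a needle sample as well, while the labels of the samples name it the total tumour. The labels were followed, so whether the way of sampling differed is not settled. Age, the labelled kind of sample and the run of code numbers in the sample titles all differ between the groups, so batch and group cannot be told apart.

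White fat cells store triglyceride in a large droplet coated with perilipins and CIDE proteins, and secrete hormones such as adiponectin and leptin. The transcription factors PPARG and C/EBP alpha switch on these genes during fat cell differentiation. The mammary gland lies in a fat pad, so that a sample of a mammary tumour can hold fat cells, while carriers and enzymes of fatty acid use are also made by epithelium, muscle, capillary endothelium and macrophages. In bulk RNA, fewer cells of a type and less RNA per cell cannot be told apart.

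None of the 25 tested genes differed between total tumours and biopsies after adjustment in limma, where the share of all probe sets called was 0%. At an unadjusted p under 0.05, 1 of the 25 was counted, Car3, where the share over all genes was 4.17%. The mean was higher in total tumours for 19 of the 25 and lower for 6, with a median difference of 0.14 on the log2 scale, and 51.2% of all genes were higher, with a median difference of 0.00. Car3 and Acadl were higher in the total tumour of every pair, as were 2.41% of all genes. The groups overlapped for all 25, and 0.417% of all genes had groups that did not overlap. The mammary epithelial list (16 of 16 genes tested, summarised as a mean log2 signal) lay between 10.88 and 11.14 in total tumours and between 10.88 and 11.03 in biopsies, so the labelled tissue was read in every array.

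These genes varied widely between arrays, and many were highest in a single one. The range over the 10 arrays had a median of 1.53 log2 units for the 25 genes, against 0.77 for all genes, and 18 of the 25 ranges were above that value. Total tumour 37I1 held the highest signal of 10 of the 25 genes (40%), against 9.32% of all genes. Those 10 were Plin2, Acsl1, Gpd1, Lpin1, Dgat1, Pnpla2, Lipe, Cebpa, Cpt2 and Car3. Without tumour 37I1, 15 of the 25 were higher on average in total tumours. Plin2, Fabp4, Acsl1, Gpd1 and Lipe then had a difference below 0, and Hadha one above 0.

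**Figure D1:**
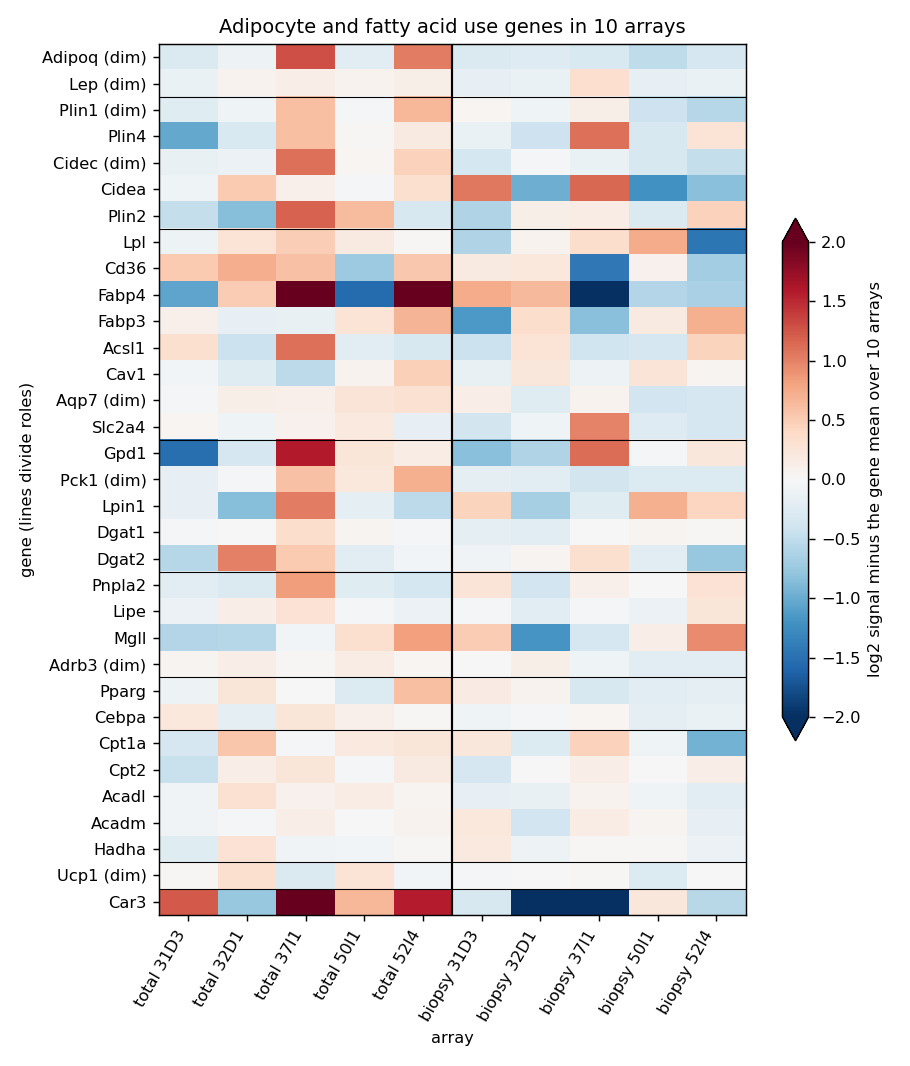
Heat map of the log2 signal of each gene in each array relative to that gene's mean over the 10 arrays, with total tumours on the left and biopsies on the right, and genes in rows by role. Red is above and blue below the gene's mean. Total tumour 37I1 carries the highest signal of 10 of the 25 tested genes.

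Many of the genes that mark fat cells were dim. Of the hormones Adipoq and Lep, the droplet proteins Plin1 and Cidec, the glyceroneogenic enzyme Pck1, the glycerol channel Aqp7, the beta-3 adrenergic receptor Adrb3 and the brown fat uncoupling protein Ucp1, all 8 had a mean under the limit of 5.15. Pck1 is also abundant in liver and kidney, and the core fat cell gene Plin4, described below, was above the limit. The mean differences of the 8 dim genes, total tumour minus biopsy, were between 0.11 and 0.68 and all 8 were above 0. The share above 0 among all dim genes was not computed. Lep, Plin1, Pck1, Aqp7, Adrb3 and Ucp1 were under the limit in every array. With no filter on low signals, Adipoq, Cidec and Pck1 had an unadjusted p under 0.05 in limma, and none of the 8 passed after adjustment. In that fit the share of all genes at an unadjusted p under 0.05 was 5.18%.

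Adipoq encodes adiponectin, which is secreted almost only by fat cells. Its log2 signal was 3.90, 4.09, 5.48, 3.97 and 5.21 in total tumours 31D3, 32D1, 37I1, 50I1 and 52I4, against 3.89, 3.92, 3.89, 3.68 and 3.85 in the biopsies of the same tumours, and all values below follow this tumour order. The gene was above the limit in total tumours 37I1 and 52I4 and in no biopsy. The mean difference was 0.68 ± 0.74 (SD of pair differences, n = 5), higher in 5 of 5 pairs, with an exact two-sided sign-flip p of 0.0625, the smallest that 5 pairs can give. In 31D3 the difference was only 0.01, so the mean rests mainly on 1.59 in 37I1 and 1.36 in 52I4.

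Cidec, a protein that fuses small droplets into a large one, read 4.01, 4.05, 5.26, 4.20 and 4.63 in total tumours, against 3.81, 4.13, 4.04, 3.85 and 3.68 in biopsies. It was above the limit in total tumour 37I1 alone of the 10 arrays, and 52I4 was its next highest. Plin1, the perilipin that gates lipolysis in white fat cells, read 3.56, 3.71, 4.40, 3.75 and 4.46 in total tumours, against 3.83, 3.72, 3.92, 3.38 and 3.22 in biopsies. Total tumours 52I4 and 37I1 were again the highest pair of arrays, but under the limit, and the dimmer second probe set of Plin1 read 3.77 in total tumour 37I1 and 3.60 in total tumour 52I4, inside its spread over the other arrays.

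The regions upstream of these 3 genes are shown as examples of genes whose signals were highest in total tumours 37I1 and 52I4. Pck1, described next, had the same 2 highest arrays, and its window held none of the motifs searched. Each is the 250 bases before the gene's start in RefSeq (GRCr8), written 5′ to 3′ on the gene's strand, with capitals marking TTGCNNAA, a form of the site that C/EBP factors bind, searched on both strands. They lie at chr11:91240170-91240419 on the minus strand for Adipoq, chr4:148137116-148137365 on the minus strand for Cidec and chr1:143086149-143086398 on the minus strand for Plin1.
Adipoq: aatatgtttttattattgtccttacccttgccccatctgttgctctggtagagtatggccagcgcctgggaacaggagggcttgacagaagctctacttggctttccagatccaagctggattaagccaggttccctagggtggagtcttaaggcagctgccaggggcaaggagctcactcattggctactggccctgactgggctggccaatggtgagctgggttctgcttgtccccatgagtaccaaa
Cidec: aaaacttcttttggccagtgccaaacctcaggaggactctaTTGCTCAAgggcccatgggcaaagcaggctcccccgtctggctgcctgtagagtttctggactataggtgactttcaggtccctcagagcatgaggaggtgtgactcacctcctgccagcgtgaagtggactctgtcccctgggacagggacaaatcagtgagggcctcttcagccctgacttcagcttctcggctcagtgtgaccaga
Plin1: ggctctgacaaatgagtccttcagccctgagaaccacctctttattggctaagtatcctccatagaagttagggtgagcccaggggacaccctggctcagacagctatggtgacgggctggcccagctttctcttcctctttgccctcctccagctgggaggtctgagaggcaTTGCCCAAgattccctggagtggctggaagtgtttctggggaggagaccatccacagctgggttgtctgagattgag

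The motif started at position -209 in Cidec and at position -77 in Plin1, counted back from -1 at the base before the start, and was not found in the Adipoq window. Of the 23 listed genes with a window in the RefSeq table, 4 held it (Cidec, Plin1, Lep and Pparg), as did 9.2% of 33360 distinct windows. TATAAA, also searched on both strands like the next motif, was in the windows of 4 of the 23 (Cav1, Cd36, Cebpa and Ucp1) and in 12.9% of all windows. The cyclic AMP response element TGACGTCA was in the Acadm window alone of the 23, and in 1.59% of all windows. A direct repeat of 2 copies of AGGTCA spaced by 1 base, the kind of site that PPARG binds, was searched on both strands with up to 2 mismatches and was in none of the 23, and in 3.15% of all windows. A match is a run of letters and not a measured binding site.

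Pck1, which supplies glycerol phosphate for triglyceride, read 3.84, 3.97, 4.59, 4.21 and 4.71 in total tumours, against 3.82, 3.79, 3.64, 3.73 and 3.72 in biopsies. It was higher by 0.53 on average and in 5 of 5 pairs, and total tumours 52I4 and 37I1 were its highest arrays, below the limit. Its groups did not overlap, though only narrowly and under the limit, with 3.84 in total tumour 31D3 and 3.82 in biopsy 31D3. Groups did not overlap for 0.417% of all tested genes, and the share among dim genes was not computed. Lep, the leptin gene, lay between 3.71 and 3.97 in total tumours and between 3.67 and 4.17 in biopsies, under the limit in all 10 arrays, and its highest array was biopsy 37I1. Aqp7 lay between 3.91 and 4.25 in total tumours and between 3.56 and 4.08 in biopsies. Adrb3 lay between 3.68 and 3.81 in total tumours and between 3.45 and 3.78 in biopsies, and Ucp1 between 3.80 and 4.40 in total tumours and between 3.82 and 4.10 in biopsies. In these 4 genes no array stood above the limit, and Ucp1 was lowest in total tumour 37I1.

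Fat content was summarised in each array as the mean log2 signal of the 5 core fat cell genes read (Adipoq, Lep, Plin1, Plin4 and Cidec). This level was 4.004, 4.26, 5.11, 4.34 and 4.86 in total tumours, against 4.19, 4.19, 4.60, 4.02 and 4.12 in biopsies. Total tumours 37I1 and 52I4 were the highest arrays, biopsy 37I1 came next, and total tumour 31D3 was the lowest. In biopsy 37I1 Plin4 read 6.96, while Adipoq (3.89), Lep (4.17), Plin1 (3.92) and Cidec (4.04) were under the limit. The pair difference of the level averaged 0.29 ± 0.36 (SD, n = 5), was above 0 in 4 of 5 pairs and was -0.18 in 31D3. It averaged 0.18 without 52I4. Plin4 was the one core gene to pass the filter on low signals and had a lower mean in total tumours. Without Plin4 the mean of the level's pair differences was 0.42, the difference in 31D3 was -0.01, and the lowest array was biopsy 52I4 in place of total tumour 31D3.

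**Figure D2:**
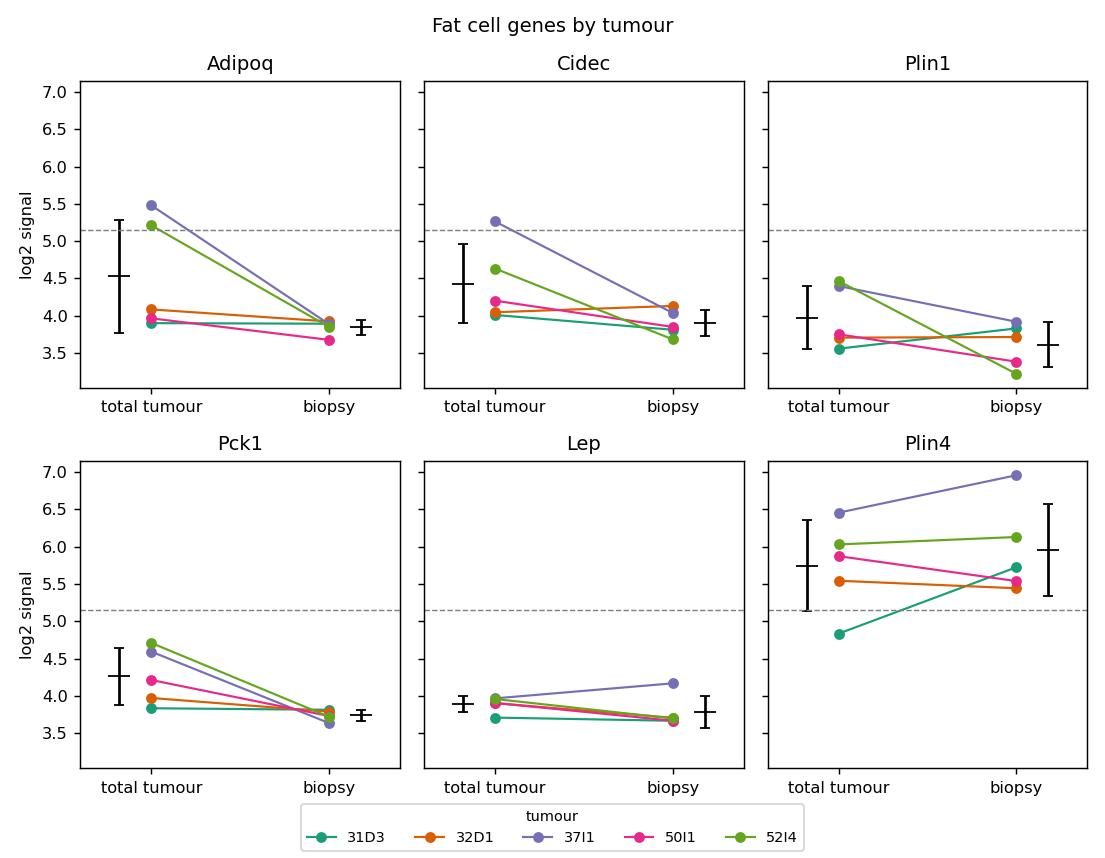
Log2 signals of Adipoq, Cidec, Plin1, Pck1, Lep and Plin4 in total tumours (left) and biopsies (right), 1 line per tumour, with the mean and SD of the 5 arrays beside each group. The dashed line is the limit of 5.15 below which probe sets were not tested. Adipoq exceeds it in total tumours 37I1 and 52I4.

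The other droplet proteins did not share that order of arrays. Plin4, a perilipin of white fat cells that also coats small droplets in muscle, read 4.84, 5.55, 6.46, 5.87 and 6.03 in total tumours, against 5.73, 5.44, 6.96, 5.54 and 6.13 in biopsies. Both samples of tumour 37I1 were its highest, and the groups overlapped, with a difference of -0.21 (SE 0.189, adjusted p = 0.896 in limma). It was -0.04 without 31D3, -0.14 without 37I1 and -0.35 without 50I1. Cidea, a droplet protein of brown fat that is also made by lactating mammary epithelium in mice, read 6.93, 7.55, 7.12, 6.99 and 7.35 in total tumours, against 8.08, 6.04, 8.17, 5.82 and 6.18 in biopsies. Biopsies 31D3 and 37I1 were the highest arrays and the other 3 biopsies the lowest, and the SD was 0.26 in total tumours and 1.17 in biopsies (n = 5 each).

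Plin2, which coats droplets in most cell types and in milk-secreting epithelium, read 10.75, 10.36, 12.40, 11.85 and 10.91 in total tumours, against 10.62, 11.33, 11.36, 10.93 and 11.68 in biopsies. Total tumours 37I1 and 50I1 were highest, and these arrays also had the highest mean level of 11 milk and alveolar genes, 10.61 in total tumour 37I1 and 10.77 in total tumour 50I1, against 7.17 to 8.83 in the other total tumours and 7.96 to 10.08 in biopsies. A dimmer Plin2 probe set, also above the limit, was highest in total tumour 37I1 (8.66) but lowest in total tumour 50I1 (7.33). The high Plin2 signal in total tumour 50I1 thus rests on the brightest probe set alone. The part of secretory epithelium in the Plin2 values was not tested. The difference of the brightest Plin2 probe set was 0.07 (SE 0.336), and -0.17 without 37I1.

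Among the genes of fatty acid uptake and transport, 6 of the 7 tested had a higher mean in total tumours and 1 a lower mean, and none passed the test. Fabp4, the cytosolic fatty acid binding protein of fat cells that macrophages and capillary endothelium also make, read 4.97, 6.52, 8.02, 4.47 and 8.23 in total tumours, against 6.77, 6.66, 3.74, 5.43 and 5.37 in biopsies. Total tumours 52I4 and 37I1 were the highest and biopsy 37I1 the lowest. Its range of 4.49 lay at the 99.1 percentile of all tested genes. The difference of 0.85 (SE 0.918, 95% interval -1.36 to 3.06, adjusted p = 0.917 in limma) was above 0 in 2 of 5 pairs, and was -0.01 without 37I1. Beside it, the mean level of 14 macrophage genes in tumour 37I1 was 10.004 in the total tumour and 8.29 in the biopsy, and that of 15 fibroblast genes was 9.51 in the total tumour and 7.17 in the biopsy, the lowest of the 10 arrays for both lists. Their part in the Fabp4 value of that biopsy was not tested.

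Cd36, a membrane fatty acid translocase of fat cells, muscle, capillaries and macrophages, read 6.81, 7.01, 6.86, 5.56 and 6.82 in total tumours, against 6.47, 6.50, 4.85, 6.37 and 5.59 in biopsies. In total tumours 4 arrays were close together and 50I1 stood below them, while biopsies 37I1 and 52I4 were low, and the groups overlapped. The difference was 0.66 (SE 0.380, 95% interval -0.25 to 1.57, adjusted p = 0.846 in limma), higher in 4 of 5 pairs, with an exact two-sided sign-flip p of 0.25. It was 0.32 without 37I1 and 1.03 without 50I1. Cd36 departed from Adipoq in total tumours 31D3 and 32D1, where Adipoq was under the limit and Cd36 was close to its values in total tumours 37I1 and 52I4.

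The endothelial level (mean of 13 genes) was 8.05, 7.14, 7.57, 6.91 and 7.81 in total tumours, against 7.21, 7.68, 6.97, 7.74 and 7.00 in biopsies. Its 3 lowest arrays, total tumour 50I1 and biopsies 37I1 and 52I4, were also the 3 lowest for Cd36, and the single pair in which Cd36 was lower, 50I1, had an endothelial difference of -0.83. In 32D1 the endothelial difference was -0.54 and that of Cd36 was 0.51. The mean level of 15 fibroblast genes had the same 3 lowest arrays: 7.17 in biopsy 37I1, 9.15 in total tumour 50I1 and 9.30 in biopsy 52I4. The fibroblast difference was -1.50 in 50I1 and -0.33 in 32D1. The part of vessel or fibroblast content in Cd36 was not tested.

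Lpl, the lipoprotein lipase that frees fatty acids in capillaries, read 9.85, 10.22, 10.45, 10.14 and 9.98 in total tumours, against 9.36, 10.03, 10.31, 10.69 and 8.52 in biopsies. Biopsy 52I4 stood low, and the difference of 0.35 (SE 0.271) was 0.07 without 52I4. Fabp3, the heart-type fatty acid binding protein, also found in mammary epithelium, differed by 0.30 (SE 0.252), and by 0.06 without 31D3. Acsl1, the acyl-CoA synthetase that activates fatty acids, differed by 0.18 (SE 0.351) with its highest array in total tumour 37I1 (7.97), and by -0.15 without 37I1. Cav1, the caveolae protein abundant in fat cells, endothelium and myoepithelium, was lowest in total tumour 37I1 (10.36) and differed by -0.11 (SE 0.152), or -0.04 without 37I1, so that the array with the highest core fat cell level had the lowest Cav1.

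Slc2a4, the insulin-responsive glucose transporter GLUT4 of fat and muscle, read 5.31, 5.18, 5.35, 5.46 and 5.11 in total tumours, against 4.91, 5.18, 6.26, 5.02 and 4.93 in biopsies. Biopsy 37I1 stood above the other 9 arrays, and the dimmer second probe set was also highest there, at 5.42. The difference was 0.02 (SE 0.209), with 4 pairs above 0 and -0.91 in 37I1. The skeletal muscle actin gene Acta1 read 9.48 in total tumour 37I1 and 11.93 in that biopsy, and 8.13 in biopsy 50I1, while the other 7 arrays lay between 4.04 and 4.91. Ckm, the muscle creatine kinase, lay between 3.74 and 4.20 in total tumours and between 3.90 and 4.12 in biopsies. It and 10 more of the 17 skeletal muscle genes read had means under the limit. Tumour 37I1 was thus high in Acta1 and not in Ckm, and the part of muscle in the Slc2a4 value was not tested.

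**Figure D3:**
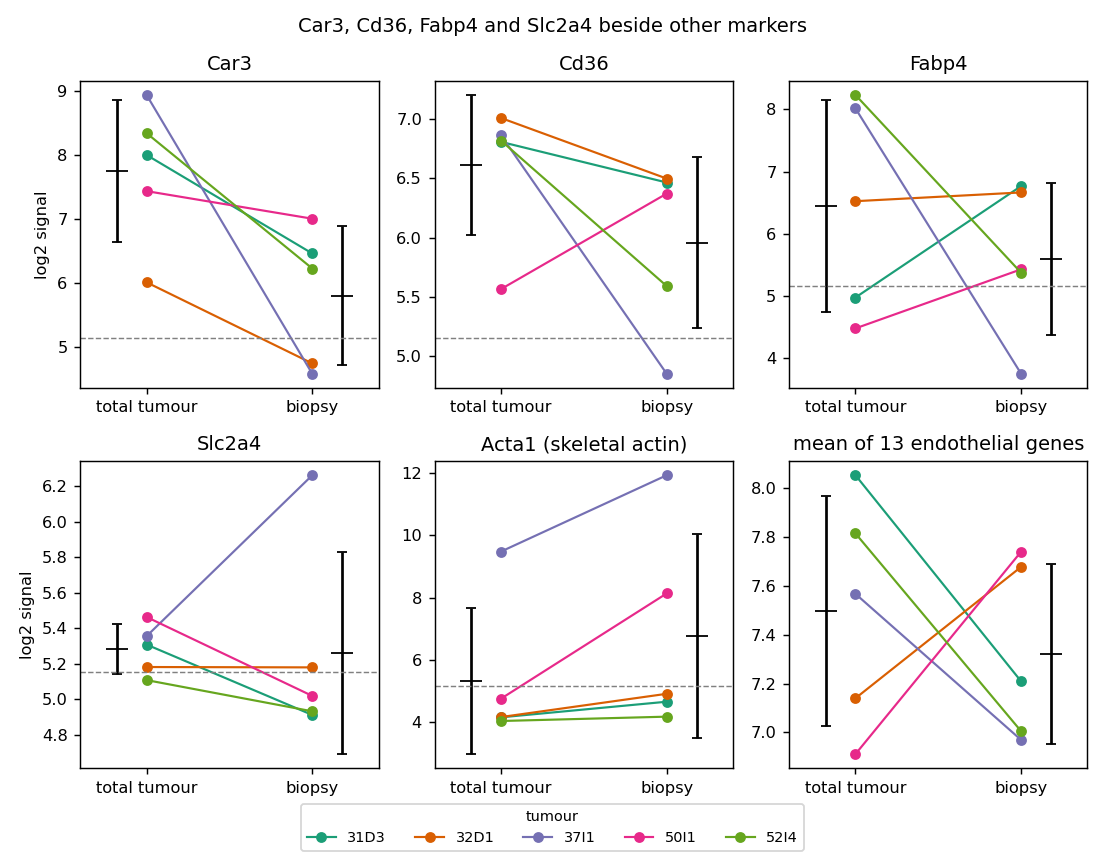
Log2 signals of Car3, Cd36, Fabp4 and Slc2a4 with Acta1 and the mean of 13 endothelial genes, in total tumours (left) and biopsies (right), 1 line per tumour, with the mean and SD of the 5 arrays. The dashed line is the limit of 5.15. Car3 slopes down to the biopsy in all 5 tumours, and Slc2a4 and Acta1 are highest in biopsy 37I1.

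Car3, a cytosolic carbonic anhydrase abundant in fat cells and slow muscle fibres, had the largest difference of the 25 genes. It read 8.004, 6.02, 8.94, 7.44 and 8.35 in total tumours, against 6.47, 4.75, 4.59, 7.01 and 6.23 in biopsies. Total tumour 37I1 was its highest array and biopsy 37I1 its lowest, and the groups overlapped because total tumour 32D1 lay below 3 biopsies. The difference was 1.94 (SE 0.527, 95% interval 0.67 to 3.21), with an adjusted p of 0.656 in limma and an exact two-sided sign-flip p of 0.0625, higher in 5 of 5 pairs. Biopsies 32D1 and 37I1 were under the limit of 5.15, so the differences in those pairs, 1.27 and 4.36, rest on a biopsy signal under it. Over the alternatives the adjusted p lay between 0.551 and 0.9999.

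The second, dimmer probe set of Car3 read 5.63, 4.84, 6.11, 5.30 and 5.75 in total tumours, against 4.92, 4.80, 4.84, 4.97 and 4.60 in biopsies. It was also higher in 5 of 5 pairs, by 0.70 on average, although 6 of its 10 signals were under the limit. Car3 departed from Adipoq in 2 ways. In 31D3 Car3 differed by 1.54 and Adipoq by 0.01, and in 32D1 Car3 differed by 1.27 and Adipoq by 0.16. Biopsy 50I1 also had a Car3 signal of 7.01, above total tumour 32D1, with Adipoq at 3.68, its lowest value. All these Adipoq signals were under the limit, so they cannot show that fat cell content was level there. Cfd, a brighter gene of fat cells described below, read 9.95 in total tumour 31D3 and 8.61 in biopsy 31D3. It read 7.75 in total tumour 32D1, 8.07 in biopsy 32D1 and 9.49 in biopsy 50I1. Of the skeletal muscle genes, Myl1 (6.74) and Tnni2 (7.31) had their highest signal of the 10 arrays in biopsy 50I1. So did Tnnc2 (5.19), Tnnt3 (4.99), Tcap (5.28), Mb (4.485), Myot (3.775) and Myh4 (3.44). Of these, all but Tnni2 had means under the limit. The other skeletal muscle genes read, Ckm (4.12), Myh1 (10.55), Acta1, Myh2, Actn3, Pvalb, Atp2a1, Eno3 and Myoz1, were highest in another array. Slow muscle was not measured as a list of its own, and the part of muscle in the Car3 values was not tested.

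The 4 tested genes of glyceride synthesis included 3 with a higher and 1 with a lower mean in total tumours. Gpd1, which makes glycerol phosphate from a glycolytic intermediate, read 5.04, 6.22, 8.14, 6.79 and 6.70 in total tumours, against 5.71, 5.95, 7.66, 6.52 and 6.78 in biopsies. Both samples of tumour 37I1 were its highest and both of 31D3 its lowest, and the difference was 0.05 (SE 0.178), far below its range of 3.10 over the arrays. The pair differences of Gpd1 lay between -0.67 and 0.48. Lpin1, the phosphatidate phosphatase that makes diacylglycerol, was highest in total tumour 37I1 (8.73, against 7.47 in its biopsy) but lower in the total tumour of the other 4 pairs, with a difference of -0.27 (SE 0.330), and -0.66 without 37I1.

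Dgat1 and Dgat2 carry out the last step of triglyceride synthesis. Dgat1 lay between 8.75 and 9.12 in total tumours and between 8.56 and 8.83 in biopsies, with a difference of 0.14 (SE 0.0981) and total tumour 37I1 highest. Dgat2 read 8.27, 9.84, 9.36, 8.62 and 8.79 in total tumours, against 8.77, 8.89, 9.15, 8.60 and 8.08 in biopsies, and its highest array was total tumour 32D1. Its difference was 0.28 (SE 0.217), and 0.11 without 32D1.

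Of the 3 tested lipases of triglyceride breakdown, 1 had a higher and 2 a lower mean in total tumours. Pnpla2, the first lipase of the pathway, read 8.22, 8.14, 9.27, 8.18 and 8.07 in total tumours, against 8.69, 8.04, 8.53, 8.41 and 8.72 in biopsies. Total tumour 37I1 stood above the other total tumours, which lay between 8.07 and 8.22, and the difference was -0.10 (SE 0.208). Lipe, hormone-sensitive lipase, lay between 7.02 and 7.43 in total tumours and between 6.93 and 7.38 in biopsies, with a difference of 0.06 (SE 0.131). Mgll, the monoglyceride lipase of the last step, had its highest signals in tumour 52I4, 8.52 in the total tumour and 8.64 in the biopsy, and a difference of -0.03 (SE 0.242).

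The transcription factors were nearly level. Pparg, the master regulator of fat cell differentiation, read 5.23, 5.57, 5.33, 5.06 and 5.93 in total tumours, against 5.50, 5.39, 5.00, 5.12 and 5.16 in biopsies. It was highest in total tumour 52I4 and close to the limit in most arrays, with a difference of 0.19 (SE 0.161), and 0.04 without 52I4. Cebpa, which acts with PPARG in fat cells and is also expressed in liver and myeloid cells, lay between 7.97 and 8.39 in total tumours and between 7.97 and 8.18 in biopsies, with a difference of 0.16 (SE 0.102). Its 5 probe sets disagreed: the brightest was higher in 4 of 5 pairs, and their mean differed by -0.03.

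The enzymes of mitochondrial fatty acid oxidation differed little between the groups. The 5 genes differed by -0.02 to 0.25, with 4 higher and 1 lower on average, and their ranges over the arrays lay between 0.51 and 1.51. Acadl, the long-chain acyl-CoA dehydrogenase, read 10.10, 10.48, 10.25, 10.32 and 10.22 in total tumours, against 10.01, 10.02, 10.24, 10.08 and 9.97 in biopsies. It was higher in 5 of 5 pairs, though by 0.01 in 37I1, with a difference of 0.21 (SE 0.101, adjusted p = 0.846 in limma) and an exact two-sided sign-flip p of 0.0625. Unlike the fat cell hormone, it was highest in total tumour 32D1.

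Cpt1a, the outer membrane carnitine transferase that limits entry into mitochondria, read 9.40, 10.29, 9.69, 9.93 and 9.97 in total tumours, against 9.97, 9.46, 10.19, 9.64 and 8.78 in biopsies. The groups overlapped, and its difference of 0.25 (SE 0.286) was 0.01 without 52I4. Cpt2, the inner membrane transferase, differed by 0.03 (SE 0.0882), Acadm, the medium-chain dehydrogenase, by 0.05 (SE 0.118), and Hadha, the alpha subunit of the trifunctional protein, by -0.02 (SE 0.134).

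**Figure D4:**
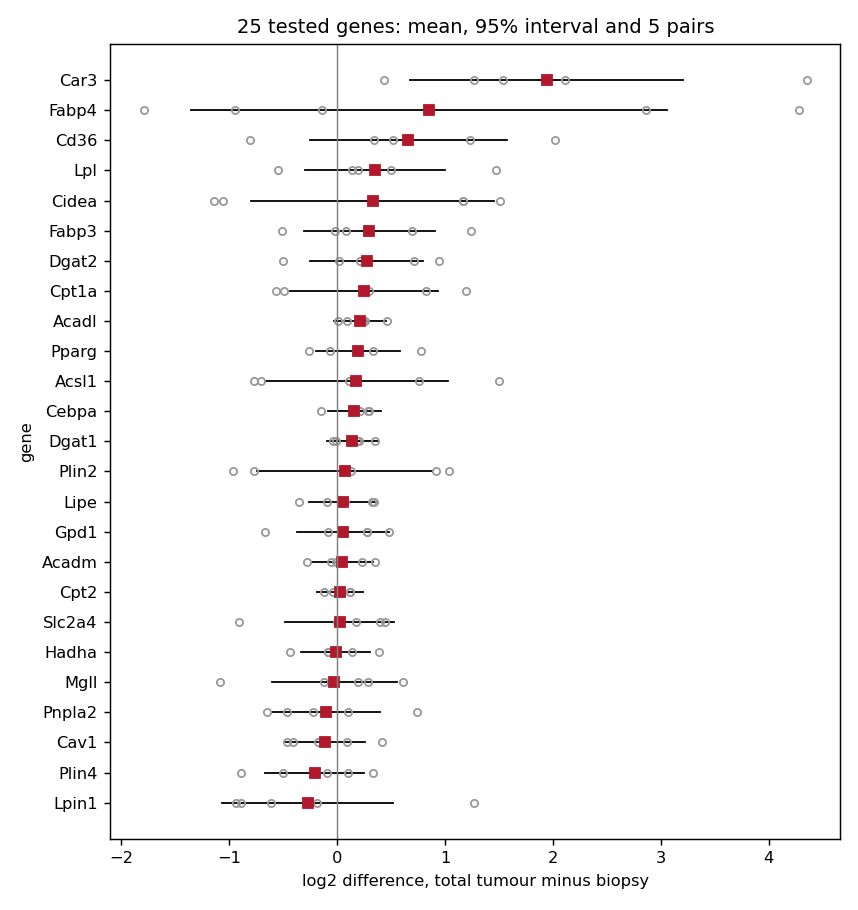
Difference of each tested gene, total tumour minus biopsy on the log2 scale, ordered by size, with open circles for the 5 pairs and squares for the mean with its 95% interval from limma. The interval of Car3 (0.67 to 3.21) is the one that does not cross 0, and no gene passed the test after adjustment.

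Compared with the core fat cell level, 12 of the 33 genes read were likewise highest in total tumour 37I1 and 21 were highest elsewhere. The 33 include the 5 core genes that make up the level, and Adipoq and Cidec are among the 12. Of all tested genes, 9.32% were highest in total tumour 37I1. The pair differences of 7 genes had the opposite sign to the core level in at least 3 of 5 pairs: Plin2, Fabp3, Acsl1, Cav1, Lpin1, Dgat1 and Ucp1. Of these, Plin2, Acsl1, Lpin1 and Dgat1 still peaked in total tumour 37I1. These counts describe the arrays and were not tested, and no share over all genes was computed for the count of 7. They use the sign alone, and some signs rest on small differences. Dgat1 differed by -0.01 in 50I1 and -0.04 in 52I4, and Fabp3 by -0.02 in 52I4. Ucp1 was under the limit in every array. The core level itself differed by 0.07 in 32D1 and by -0.18 in 31D3, or -0.01 there without Plin4.

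Other genes of the same pathways gave the same picture of no called gene. Of 30 further fat cell genes, 23 were tested, 18 were higher and 5 lower in total tumours on average, with a median difference of 0.09. None passed, and 1 higher and 1 lower had an unadjusted p under 0.05 in limma. For this list and those below, 51.2% of all tested genes were higher and 4.17% had such a p in limma. Angptl4, a secreted inhibitor of lipoprotein lipase, read 9.38, 8.26, 9.25, 9.08 and 8.39 in total tumours, against 7.19, 8.35, 7.75, 8.44 and 7.04 in biopsies (difference 1.12, SE 0.318, adjusted p = 0.657 in limma). Cfd, adipsin, a complement protease secreted by fat cells and also made by macrophages, was not dim: it read 9.95, 7.75, 9.85, 7.68 and 8.98 in total tumours, against 8.61, 8.07, 5.74, 9.49 and 8.02 in biopsies. Its highest array was total tumour 31D3, and the groups overlapped, with a difference of 0.86 (SE 0.777, adjusted p = 0.896 in limma). Nnat, neuronatin, was lower in the total tumour of all 5 pairs, with a difference of -0.61 (SE 0.156, adjusted p = 0.642 in limma). Of 9 brown fat genes read, Cidea alone passed the filter on low signals.

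Of 12 tested genes of fatty acid synthesis, 5 were higher and 7 lower, with a median of -0.02, none called and 1 lower at an unadjusted p under 0.05 in limma. Acly, ATP citrate lyase, which makes cytosolic acetyl-CoA, read 10.04, 11.13, 11.33, 11.20 and 10.70 in total tumours, against 10.68, 11.57, 11.54, 11.48 and 11.08 in biopsies. It was lower in all 5 pairs, by -0.39 (SE 0.0991, adjusted p = 0.642 in limma). Scd, the stearoyl-CoA desaturase, differed by -0.86 (SE 0.477), with biopsy 52I4 highest at 10.67.

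Of 24 further tested genes of fatty acid oxidation, 17 were higher and 7 lower, with a median of 0.07, none called, and 2 higher and 1 lower at an unadjusted p under 0.05 in limma. Pdk4, the kinase that shuts off pyruvate dehydrogenase when fatty acids are burned, read 8.09, 5.77, 10.30, 8.01 and 8.42 in total tumours, against 7.86, 4.98, 7.59, 6.51 and 8.12 in biopsies. It was higher in 5 of 5 pairs by 1.11 (SE 0.371, adjusted p = 0.705 in limma), and total tumour 37I1 was again the highest array. Eci2, an enoyl-CoA isomerase for unsaturated fatty acids, was higher in 5 of 5 pairs by 0.37 (SE 0.127, adjusted p = 0.725 in limma).

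Markers of other cell types also varied between the samples. All 15 fibroblast genes were higher in total tumours on average (median 0.46), and none passed or had an unadjusted p under 0.05 in limma. In 37I1 the fibroblast level was 9.51 in the total tumour, against 7.17 in the biopsy, and in 52I4 it was 10.73 in the total tumour, against 9.30 in the biopsy, the same 2 pairs with the largest core fat cell differences. In 50I1 it was 9.15 in the total tumour and 10.65 in the biopsy, while the core fat cell level was higher by 0.32. All 10 smooth muscle genes were lower on average (median -0.37), 3 of them at an unadjusted p under 0.05 in limma. Over all tested genes, 51.2% were higher on average and 4.17% had an unadjusted p under 0.05 in limma. The counts of these lists were not tested. Of the 11 milk and alveolar genes 5 were higher and 6 lower, and of 14 macrophage genes 7 were higher and 7 lower, with none called in any of these lists.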

How the data were processed

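Total RNA of 5 total tumours and 5 biopsies was hybridised to 10 Affymetrix rat arrays, 1 per sample. The authors deposited 1 normalized log2 signal for each probe set and array, made by RMA (Robust Multichip Average) according to the submitters' processing notes. Values from 2.34 to 14.26 show the log2 scale of the deposited signals. For RMA, neither a version nor the chip definition is given in the sources used here. RMA gives the arrays a shared distribution, so a shift common to most transcripts is removed. Array medians lay between 5.99 and 6.12. Arrays give no read depth, and their number limits the precision.

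Control probe sets (57 of 31099) were dropped, leaving 31042. In GEO's platform annotation 20826 of them pair with 1 gene, 436 with more than 1 gene and 9780 are not named, and symbols were updated through gene identifiers. Each gene was read by the brightest of its probe sets, as a mean over all arrays, and 14 of the genes described had several. The dimmest 40% were left out, since the series text names a filter near background without a number, which left 18625 probe sets.

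Groups and pairs follow the tumour names in the labels, which both groups share. Deviations from the group means correlated above 0.1 in 4 of 5 same-tumour pairs (-0.21 to 0.34), and up to 0.36 between different tumours. Total tumours were compared with biopsies in limma 3.58.1 (R 4.3.3), blocking on tumour because the series text names a paired test, with Benjamini-Hochberg adjustment over all probe sets tested and a threshold of 0.05. A p-value here measures only the spread between these samples, since separate rats are not stated. Car3, Cd36 and other single values were also tested by exact sign flips over the 5 pairs. Lists were described by counts, medians and mean log2 levels, with no test.

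The genes and lists were chosen with earlier results of these data known. All 34 genes are named, and at most 2 genes with the smallest p from each further list. Cfd and the skeletal muscle genes other than Acta1 were named after their values were seen. Upstream windows of 250 bases came from RefSeq. Steps were tested on simulated data. Python 3.11.15, pandas 2.3.3 and matplotlib 3.10.9 were used for summaries and figures.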

Additional observations from a re-analysis of the deposited data

Results flagged for a closer look

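In groups of 5 arrays, 8 values stood apart from the rest of their group by more than Dixon's 95% critical value of 0.71, out of 92 groups tested, and chance flags about 1 in 20 groups. In tumour 37I1, the total tumour was the highest of the total tumours for Dgat1 (9.12, next 8.82) and Pnpla2 (9.27, next 8.22). The biopsy of 37I1 was the highest of the biopsies for Slc2a4 (6.26, next 5.18), Lep (4.17, next 3.71) and the core fat cell level (4.60, next 4.19). In tumour 50I1, the total tumour was the lowest for Cd36 (5.56, next 6.81) and the biopsy was the lowest for Ucp1 (3.82, next 4.05). Total tumour 31D3 was the lowest total tumour for Lep (3.71, next 3.90). The Lep and Ucp1 signals were all under the limit of 5.15. Of the core fat cell genes, Plin4 alone was above it in biopsy 37I1.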

How the results depend on the processing

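No gene described here passed the adjusted threshold in limma under any alternative (lowest adjusted p 0.551), and 14 of the 25 tested genes kept the sign of their difference throughout, Car3, Cd36 and Acadl among them. Signs turned for 11 genes. Mgll differed by 0.0066 with median centring and 0.0071 with quantile normalization, Hadha by 0.0163 with median centring, and Cebpa by -0.0283 as the mean of its probe sets. Leaving out each tumour in turn gave differences of -0.18 to 0.24 for Mgll, -0.118 to 0.0886 for Hadha, -0.0831 to 0.255 for Slc2a4, -0.0516 to 0.235 for Gpd1, -0.0152 to 0.16 for Lipe, -0.0278 to 0.129 for Acadm, -0.17 to 0.33 for Plin2, -0.0059 to 1.51 for Fabp4, -0.15 to 0.42 for Acsl1 and -0.312 to 0.0344 for Pnpla2, and 1.34 (without 37I1) to 2.32 (without 50I1) for Car3. The cause was not tested. Car3 differed by 1.32 as the mean of its probe sets and by 0.70 on its second probe set, an alternative chosen after seeing the data. The core fat cell level differed by -0.21 when limited to genes that pass the filter, since Plin4 alone is left. Without the replicate block 0 of the 25 genes were called, 1 had an unadjusted p under 0.05 and 19 were higher, as with the block, and Car3 had an adjusted p of 0.924. With the paired test of the series text 0 were called and 1 had an unadjusted p under 0.05. Signals under the limit of 5.15 restrict what can be said of Adipoq, Cidec, Plin1, Pck1, Lep, Aqp7, Adrb3 and Ucp1, and of Car3, Cd36, Fabp4, Slc2a4, Pparg, Gpd1 and Plin4 in the arrays where they lay under it.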
